A study of Mus musculus with 8 samples.

Results

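The AP-1 and immediate early genes described here are Fos, Fosb, Fosl1, Fosl2, Jun, Junb, Jund, Atf3, Egr1 and Zfp36. They were chosen by name: every gene probe on the arrays whose RefSeq transcript belonged to 1 of the 10 genes was taken, whatever its signal. This gave 11 of 39429 gene probes, for 10 of the 20886 named genes on the array. Fosl2 had 2 probes and each other gene had 1. RNA had been taken from macrophages of male mice after LPS, a bacterial endotoxin that activates macrophages, and hybridised to 8 1-colour Agilent arrays. Of these, 4 arrays carried RNA of wild-type mice (WT 1 to 4) and 4 carried RNA of EP2-KO mice (EP2KO 1 to 4), which lack the prostaglandin E2 receptor EP2, the product of Ptger2. Every sample came from LPS-treated mice, so no untreated level was measured and a value here is a level after LPS, not a response to it. The sources used here give no dose or time of LPS, no strain or age of the mice, no site of the macrophages and no make of the EP2 allele. Nothing in the labels ties each replicate to a mouse of its own, and the spread behind the p-values may be technical.

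Immediate early genes are switched on by signals within minutes and without new protein synthesis, through transcription factors that are already present and are modified by kinases. AP-1 is a pair of leucine zipper proteins, either a FOS protein with a JUN protein or a pair of JUN proteins, and JUN proteins can also pair with ATF proteins. In macrophages, LPS acts through the receptor TLR4 and MAP kinases on this set of genes. EP2 couples to a G protein that raises cyclic AMP, whose kinase modifies CREB, a factor that binds the cyclic AMP response element (CRE) in promoters such as that of Fos. Zfp36 encodes tristetraprolin, a protein that binds AU-rich elements of cytokine mRNAs and hastens their decay.

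All values are the scanner's background-corrected signal divided by the 75th percentile of the gene probes of the same array, called relative signal, or its log2. Signals of different probes depend on the probe, so levels are compared between arrays and never between genes. The arrays lay on 2 slides, told apart by the barcodes in the file headers. Slide 1 held WT 1, WT 2, EP2KO 1 and EP2KO 2, and slide 2 held WT 3, WT 4, EP2KO 3 and EP2KO 4. The slides carry different samples, so the slide, its scan and anything else that its samples had in common cannot be told apart. The genotypes also took fixed places on a slide (positions 1 and 2 for WT, 3 and 4 for EP2KO), and the effect of the place cannot be told apart from that of the genotype. Between 25555 and 32147 probes per array were well above background, with a 75th percentile of 987 to 1508 signal units. Macrophage markers were present: 13 of 13 on the array, among them Adgre1, Csf1r and Cd68, were well above background on all 8 arrays. Ptger2 had a relative signal of 0.90 to 1.12 on the WT arrays and of 0.22 to 0.36 on the EP2KO arrays, with a log2 difference of -1.76 ± 0.17 (SE, n = 4 per genotype; limma adjusted p = 0.0616, and 0.0328 with the slide as a block). The sources used here do not say which part of Ptger2 was removed, so a probe outside it would check nothing.

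Of the 11 probes of these genes, 10 were well above background on all 8 arrays. The exception was the Fosl1 probe, which was above background on 4 EP2KO and 3 WT arrays and passed the filter on dim probes through the EP2KO arrays alone. All 10 genes entered the fits. The plot of all probes by array shows the values described in the following paragraphs.

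**Figure D1:**
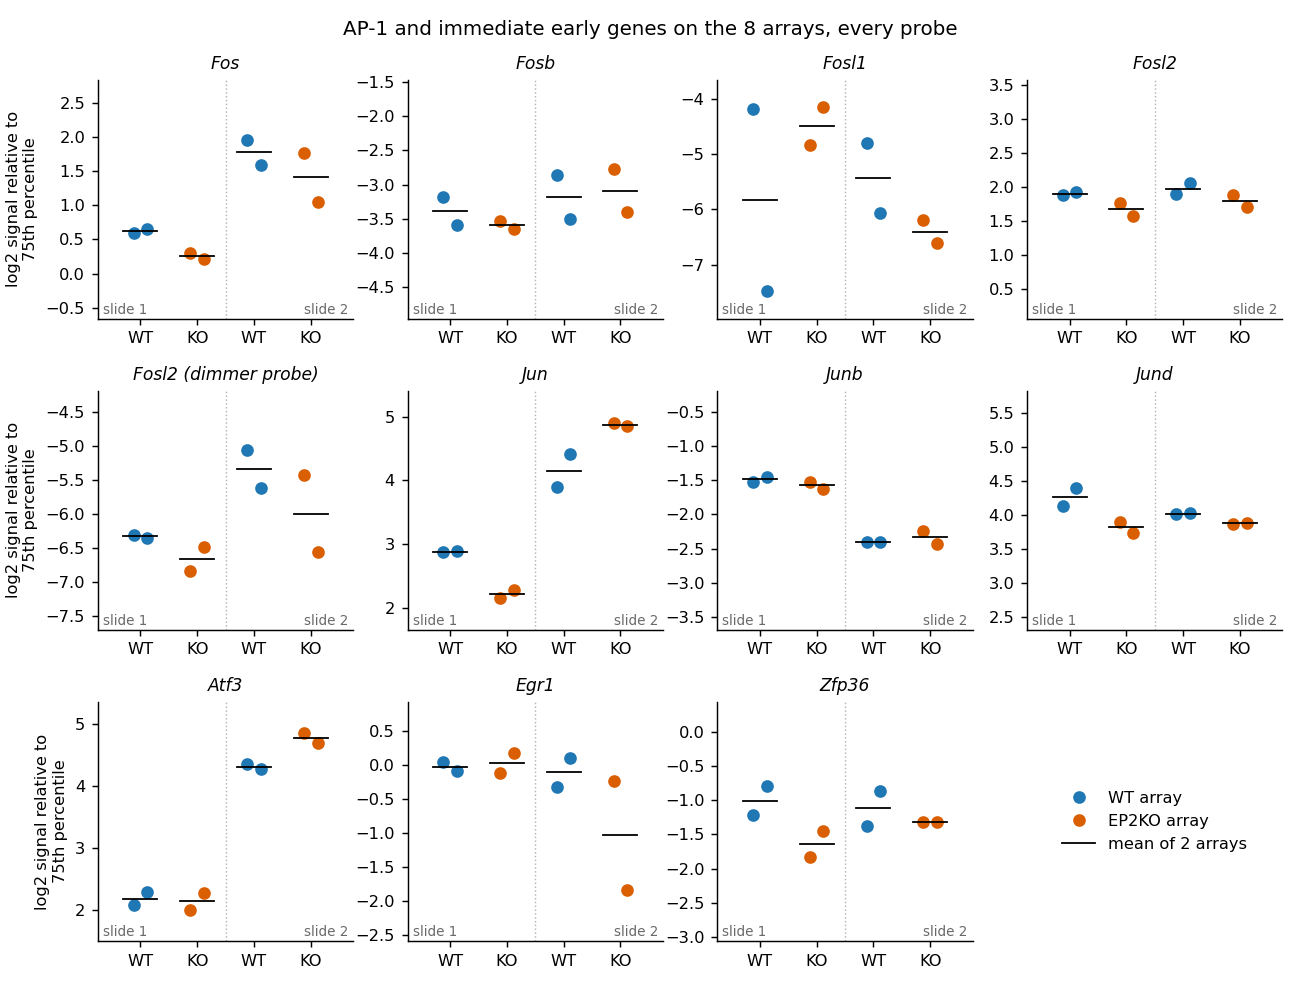
Log2 of the relative signal (vertical axis, log2 units) of all 11 probes on the 8 arrays, grouped by slide and genotype. Points are arrays, blue for WT and orange for EP2KO (KO on the axis), and black lines are means of 2 arrays. Atf3, Jun and Fos lie higher on slide 2 than on slide 1 in both genotypes, and Junb lies lower.

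Promoter sequence from RefSeq (build GRCm38.p6) was used for 8 of the 10 genes, and no window of Fosl1 or Egr1 was used. The 250 bases before the start of Fos, Jun, Atf3 and Junb are shown because these are the 4 genes whose signal differed between the slides in the fits below, and because Fos and its CRE are the classical target of cyclic AMP and CREB.
Fos, chr12:85473640-85473889, plus strand: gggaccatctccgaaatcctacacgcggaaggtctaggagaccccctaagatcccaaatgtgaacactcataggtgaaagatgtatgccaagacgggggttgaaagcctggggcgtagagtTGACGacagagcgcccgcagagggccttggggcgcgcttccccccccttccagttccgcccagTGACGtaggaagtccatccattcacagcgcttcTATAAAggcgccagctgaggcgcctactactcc
Jun, chr4:95052223-95052472, minus strand: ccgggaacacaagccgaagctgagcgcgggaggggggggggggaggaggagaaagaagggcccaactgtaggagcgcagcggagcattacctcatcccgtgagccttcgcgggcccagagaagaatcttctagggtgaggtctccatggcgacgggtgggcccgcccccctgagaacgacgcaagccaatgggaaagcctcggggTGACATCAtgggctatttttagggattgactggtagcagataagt
Atf3, chr1:191183334-191183583, minus strand: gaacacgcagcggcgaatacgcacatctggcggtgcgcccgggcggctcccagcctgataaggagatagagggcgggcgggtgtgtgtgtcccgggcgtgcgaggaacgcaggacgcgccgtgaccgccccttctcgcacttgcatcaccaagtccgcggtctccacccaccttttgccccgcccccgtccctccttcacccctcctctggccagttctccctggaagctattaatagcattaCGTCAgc
Junb, chr8:84978749-84978998, minus strand: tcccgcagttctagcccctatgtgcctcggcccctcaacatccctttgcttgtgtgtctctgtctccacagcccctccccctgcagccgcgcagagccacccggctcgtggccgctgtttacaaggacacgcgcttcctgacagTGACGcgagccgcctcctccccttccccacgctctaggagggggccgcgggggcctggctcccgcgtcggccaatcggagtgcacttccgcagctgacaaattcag
Capitals mark the letters of the motifs searched on both strands. In Fos these are 2 copies of the short CRE (TGACG, the core of the full site) at -129 to -125 and -66 to -62, counted from the first transcribed base back, and a TATA box (TATAAA) at -33 to -28. In Atf3 they are a short CRE read on the other strand at -7 to -3, and in Junb a short CRE at -106 to -102. In Jun they are the AP-1-like letters TGACATCA at -45 to -38, the known type of site by which JUN and ATF proteins act on the Jun promoter. This motif was added after the sequences had been seen.

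The full CRE (TGACGTCA), which contains a short CRE on each strand, was found in 0 of the 8 windows of 300 bases, 250 before and 50 after the start, against 1.79% of 32851 such windows of mouse genes. The short CRE was found in 4 of 8 (Fos, Fosb, Atf3 and Junb), against 20.8% of all windows. The EGR site (GCGGGGGCG or GCGTGGGCG) was found in 3 of 8, those of Fosb, Fosl2 and Zfp36, against 3.47%. The CArG box, bound by serum response factor, was found in 1 of 8 (Zfp36), against 1.63%. TATAAA was found in 2 of 8 (Fos and Junb, the latter at the start itself), against 13.6%. The AP-1 site (TGACTCA or TGAGTCA) was found in 0 of 8, against 5.20%. TGACATCA was found in 1 of 8, against 3.62%. These matches describe the letters in the windows and nothing more, and the counts do not cover Fosl1 and Egr1.

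The first comparison was EP2KO against WT, the contrast of the study, after LPS. None of the 10 genes differed by the test: 0 of 10 were called by limma at an adjusted p of 0.05, where 0.00964% of all 20738 features were called. The count was also 0 of 10 with the slide as a block, where 0.0193% of features were called. At an unadjusted p under 0.05 there were 0 of 10 without a block (1.98% of features) and 1 of 10, Jund, with the slide as a block (7.34%). On single slides limma again called 0 of 10: on slide 1 alone 0% of 21967 features were called and on slide 2 alone 1.48% of 22908, where 2 arrays stood against 2. At an unadjusted p under 0.05 there were 2 of 10 on slide 1 (Fos and Jun), where 12.9% of features passed, and 2 of 10 on slide 2 (Jun and Atf3), where 16.7% passed. The difference was below 0 for 7 genes and above 0 for 3, where 56.6% of all features were below 0. Its sign was the same on both slides for 4 of the 10 (Fos, Fosl2, Jund and Zfp36), where 36.3% of features kept their sign. The median log2 difference of the 10 genes was -0.14, beside -0.03 over all features. Each difference below is the log2 level in EP2KO less that in WT, from 4 arrays of each.

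Among the FOS family, Fos, which encodes the partner of JUN in the classical AP-1 dimer, had a relative signal of 1.50, 1.58, 3.90 and 3.01 on WT 1 to 4 and of 1.23, 1.17, 3.41 and 2.07 on EP2KO 1 to 4. The EP2KO arrays lay below both WT arrays on slide 1, while on slide 2 EP2KO 3 lay between WT 3 and WT 4. The log2 difference was -0.36 ± 0.45 (SE; adjusted p = 1), with a 95% interval from -1.41 to 0.68. Once the slide was a block, the SE was 0.17 and the interval ran from -0.77 to 0.04 (adjusted p = 0.733). The difference was nearly equal on the slides, with -0.36 on slide 1 and -0.37 on slide 2. With single arrays left out of the slide-blocked fit it ran from -0.51 to -0.22.

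The Fos probe was printed 10 times on each array, so its measuring error within an array could be seen. Of 80 spots, 5 carried an outlier flag and were left out. The SD between spots was 0.0287 to 0.0783 log2 units within an array. On WT 3 the spots spanned relative signals of 3.81 to 4.04, and on WT 4 they spanned 2.83 to 3.12, so these 2 arrays of the same genotype and slide shared no spot value. EP2KO 3 (3.06 to 3.63) and EP2KO 4 (1.96 to 2.19) were apart in the same way. The spread between arrays of 1 genotype on slide 2 was therefore larger than the error of the spots.

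**Figure D2:**
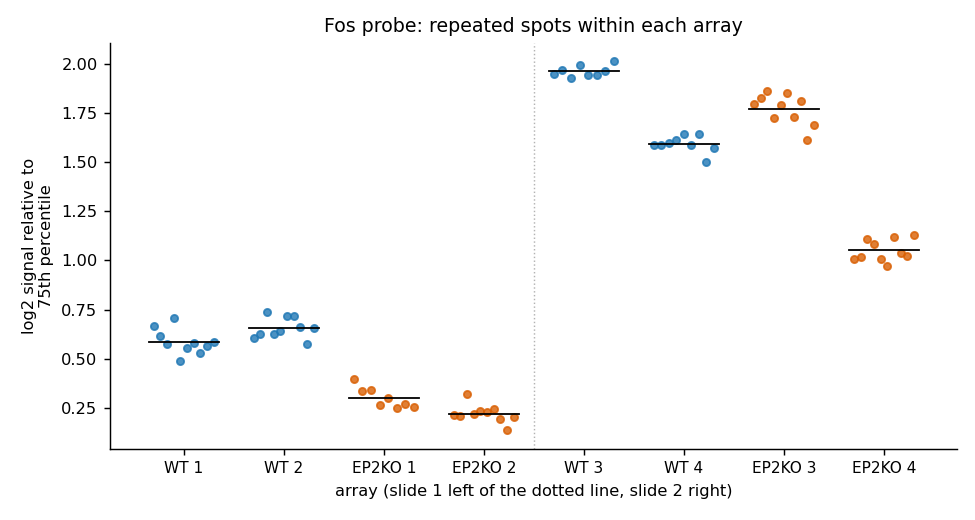
Log2 relative signal (vertical axis, log2 units) of each unflagged Fos spot by array, with black lines for array means. Slide 1 is left of the dotted line and slide 2 right of it. Spots of 1 array lie close together (SD 0.0287 to 0.0783), the 2 arrays of a genotype on slide 2 lie apart from each other, and all arrays of slide 2 lie above all of slide 1.

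Fosb, a FOS protein best known from neurons, had a dim probe with a relative signal of 0.111, 0.0832, 0.138 and 0.0883 in WT and 0.0860, 0.0795, 0.145 and 0.0940 in EP2KO. The groups overlapped, and the log2 difference was -0.07 ± 0.25 (SE). Fosl1, which encodes FRA-1, was dimmer still, with 0.0553, 0.00561, 0.0358 and 0.0149 in WT and 0.0349, 0.0563, 0.0136 and 0.0102 in EP2KO. The value of WT 2 was not well above background. The log2 difference of Fosl1 was 0.18 ± 0.82 (SE), with an interval from -1.72 to 2.08, so differences of over 2-fold in either direction lay within it. Its slides differed in sign, with 1.33 on slide 1 and -0.97 on slide 2, and without WT 2 the difference was -0.43.

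Fosl2, which encodes FRA-2, had a bright probe with 3.68, 3.80, 3.70 and 4.18 in WT and 3.39, 2.99, 3.69 and 3.25 in EP2KO. EP2KO arrays lay below the WT arrays within either slide, although EP2KO 3 (3.69) lay just above WT 1 (3.68). The log2 difference was -0.21 ± 0.12 (SE; adjusted p = 1), with -0.23 on slide 1 and -0.18 on slide 2. Its second probe was far dimmer, with 0.0127, 0.0123, 0.0300 and 0.0204 in WT and 0.00877, 0.0112, 0.0232 and 0.0106 in EP2KO. That probe differed by -0.50 ± 0.39, in the same direction as the first and with overlap between the groups.

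Among the JUN family, Jun, the main DNA-binding partner of FOS, showed genotype differences of opposite sign on the slides. Its relative signal was 7.32 and 7.39 on WT 1 and 2 against 4.44 and 4.85 on EP2KO 1 and 2, and 14.8 and 21.2 on WT 3 and 4 against 30.0 and 28.8 on EP2KO 3 and 4. EP2KO thus lay below WT on slide 1 (log2 difference -0.66) and above WT on slide 2 (0.73), without overlap on either. Over all arrays the difference was 0.03 ± 0.76 (SE; adjusted p = 1), and with the slide as a block its interval ran from -0.65 to 0.72.

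A test of this reversal in 1 model, the interaction of genotype and slide, gave a log2 value of 1.39 ± 0.26 (SE) for Jun, unadjusted p = 0.00166 and limma adjusted p = 0.114, which misses the threshold. Of the 10 genes, 0 passed this interaction test at the adjusted threshold (0.0145% of all features did), and 1 of 10, Jun, had an unadjusted p under 0.05, beside 21.1% of features. Opposite, non-overlapping genotype differences on the slides were found for 17.4% of features, so the reversal of Jun was not rare on these arrays.

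Junb, a JUN protein that can restrain Jun, had a relative signal of 0.348, 0.365, 0.189 and 0.189 in WT and 0.348, 0.324, 0.212 and 0.185 in EP2KO. The genotypes overlapped on both slides, and the log2 difference was -0.01 ± 0.32 (SE). With the slide as a block the 95% interval ran from -0.23 to 0.21, the narrowest of the 10 genes. Jund, the JUN protein that is present in resting cells of most kinds, had 17.6, 21.0, 16.1 and 16.4 in WT and 14.9, 13.3, 14.6 and 14.8 in EP2KO. All 4 EP2KO values lay below all 4 WT values, as was the case for 0.95% of all features (1.38% had separated genotypes in either direction), and Jund was the only 1 of the 10 genes without overlap between the genotypes. Its log2 difference was -0.29 ± 0.13, a 1.23-fold lower signal (adjusted p = 1), with -0.45 on slide 1 and -0.14 on slide 2. Once the slide was a block, the interval ran from -0.56 to -0.03 and the adjusted p over all features was 0.626, so the difference was not called.

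Atf3, which encodes a stress-induced ATF protein known to restrain TLR4-driven cytokine genes, had a relative signal of 4.25, 4.88, 20.4 and 19.2 in WT and 4.02, 4.87, 28.8 and 25.8 in EP2KO. Genotypes overlapped on slide 1, and on slide 2 both EP2KO arrays lay above both WT arrays. The log2 difference was 0.21 ± 0.86 (SE; adjusted p = 1), with -0.04 on slide 1 and 0.46 on slide 2. With the slide as a block the interval ran from -0.13 to 0.55.

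Egr1, a zinc finger factor induced through serum response factor, had 1.03, 0.938, 0.803 and 1.08 in WT and 0.918, 1.13, 0.847 and 0.282 in EP2KO. EP2KO 4 was the lowest array, and the other 7 lay between 0.803 and 1.13. The log2 difference of -0.44 ± 0.42 (SE) rested on that array: without it the difference was 0.00, and -0.02 with the slide as a block.

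Zfp36, the decay factor, had 0.430, 0.578, 0.388 and 0.553 in WT and 0.282, 0.366, 0.400 and 0.400 in EP2KO. EP2KO lay below WT on slide 1, while on slide 2 both EP2KO values lay between WT 3 and WT 4. The log2 difference was -0.42 ± 0.19 (SE; adjusted p = 1), a 1.34-fold lower signal, with -0.64 on slide 1 and -0.21 on slide 2. With the slide as a block the interval ran from -0.85 to 0.01 (adjusted p = 0.686). Fosl2 and Jund were below WT without overlap within each slide, a pattern held by 4.09% of all features. For Fosl2 on slide 2 this rested on 3.69 on EP2KO 3 against 3.70 on WT 3, and its dimmer probe overlapped there.

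**Figure D3:**
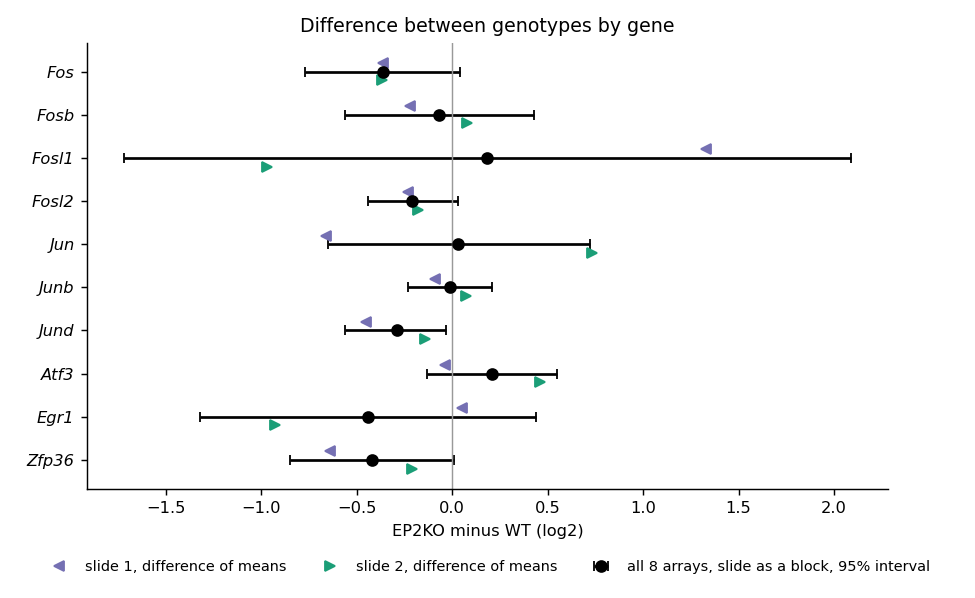
Difference between EP2KO and WT (horizontal axis, log2 units) for the 10 genes. Black points with bars are the differences over all 8 arrays with 95% intervals of the slide-blocked fit, and triangles are the differences of means on each slide. Only the interval of Jund (-0.56 to -0.03) leaves out 0, with no adjustment for the number of features, and Jun lies at -0.66 on slide 1 and 0.73 on slide 2.

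The genes around AP-1 were read from 7 lists, for which 159 genes were tested. With limma, 0 of them were called between the genotypes, with or without the slide as a block. At an unadjusted p under 0.05 there were 1 of 159 without a block (1.98% of all features) and 10 of 159 with it (7.34%). Other immediate early genes had a median log2 difference of -0.09 over 39, with 24 of 39 below 0. The 2 with the smallest unadjusted p were Bhlhe40, a clock-linked repressor, at 0.35 ± 0.16 (SE), and Per1, a clock gene with a CRE, at 0.43 ± 0.28. Other leucine zipper partners of AP-1 stood at 0.02 over 26, with Crem, a cyclic AMP-responsive CREB relative, at -0.28 ± 0.18 and Maf at -0.33 ± 0.23. Kinases and factors upstream of AP-1 stood at -0.03 over 32. Among them Mapk13, a p38 kinase, differed by -1.16 ± 0.44 (-0.52 on slide 1 and -1.81 on slide 2), and Mapkapk3, a kinase activated by p38, by 0.20 ± 0.15.

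Relatives of Zfp36 and its decay partners had a median of 0.05 over 18, with the deadenylase subunits Cnot6l at 0.33 ± 0.15 (SE) and Cnot6 at 0.16 ± 0.13. mRNAs known to be bound by Zfp36 stood at 0.01 over 14. Their median was 0.56 on slide 1 and -0.46 on slide 2, with Il10 at -0.60 ± 0.42 and Il1a at 1.05 ± 0.69. Genes with known AP-1 control stood at -0.03 over 22, with medians of 0.69 on slide 1 and -0.65 on slide 2. The matrix protease Mmp3 was at -2.34 ± 1.29 (0.75 on slide 1 and -5.44 on slide 2), and the metallothionein Mt2 at -0.68 ± 0.44. The Mmp3 and Il10 probes were not well above background on EP2KO 4. Heat shock genes, which mark handling stress, stood at -0.04 over 14, with Hspb1 at -1.42 ± 0.71 and Hsp90aa1 at -0.09 ± 0.14. None of these values passed the test.

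Markers of cell types were set beside these values, within each slide, and limma called 0 of them in any list between the genotypes, with or without the slide as a block. The summed relative signal of 13 macrophage markers was 317 to 374 in WT and 284 to 301 in EP2KO on slide 1, and 242 to 280 and 302 to 349 on slide 2. Of these markers, 6 of 13 were below 0 in EP2KO, and 0 had an unadjusted p under 0.05 (2 with the slide as a block). Over all features, 56.6% were below 0, and limma gave 1.98% an unadjusted p under 0.05 (7.34% with the slide as a block). The sum of 15 fibroblast and mesothelial markers was 25.0 to 95.8 in WT and 58.6 to 96.0 in EP2KO on slide 1, and 126 to 141 and 4.93 to 26.5 on slide 2. The median log2 difference of these 15 was 1.02 on slide 1 and -3.60 on slide 2, and over all arrays 15 of 15 were below 0 (1 at an unadjusted p under 0.05, and 2 with the slide as a block). Genotypes thus lay far apart on slide 2 in this list, where Jun and Atf3 were higher in EP2KO. The sum of 11 B cell markers was 85.8 to 110 in WT and 65.9 to 110 in EP2KO on slide 1, and 14.7 to 18.2 and 6.52 to 10.6 on slide 2, with 10 of 11 below 0 (1 and 2 at an unadjusted p). For 16 T and NK cell markers the sum was 41.3 to 43.1 and 22.0 to 31.4 on slide 1, and 19.7 to 21.8 and 30.1 to 31.2 on slide 2. Of these, 15 of 16 were below 0 (1 and 12 at an unadjusted p), with medians of -1.26 and -0.37 on the slides, so on slide 2 the sum and the median differed in sign. Mast cell and eosinophil markers summed to 16.1 to 28.7 and 38.0 to 38.2 on slide 1, and to 2.12 to 5.02 and 9.14 to 14.4 on slide 2, with 3 of 11 tested below 0 (0 and 7 at an unadjusted p). In bulk RNA, fewer cells of a type and less RNA per cell cannot be told apart, and the part of these cells in the values of the 10 genes was not tested.

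The second comparison was slide 2 against slide 1, with the genotype in the fit. Atf3 was 5.17-fold, Jun 3.91-fold and Fos 2.22-fold higher on slide 2, and Junb was 1.79-fold lower. These 4 of the 10 genes were called (3 higher, 1 lower), where 43.2% of all features were called (25.1% higher and 18.2% lower), so the share of called genes was close to that of all features. With normexp background correction, 3 of the 10 (Atf3, Jun and Fos) and 17% of all features were called, so the distance between the shares depended on how the background was treated. The remaining 6 genes were not called. Differences are slide 2 minus slide 1 on the log2 scale, with n = 4 arrays per slide.

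For Atf3 the log2 difference was 2.37 ± 0.14 (SE; limma adjusted p = 8.22e-05), made of 2.12 in WT and 2.62 in EP2KO. It was the 299th largest rise among 20738 features. The difference for Jun was 1.97 ± 0.29 (adjusted p = 0.00198), with 1.27 in WT and 2.66 in EP2KO, and it held rank 502. Fos differed by 1.15 ± 0.17 (adjusted p = 0.00205), with 1.16 in WT and 1.15 in EP2KO, at rank 1616. For Atf3, Jun and Fos, all 4 arrays of slide 2 lay above all 4 of slide 1, and for Junb all lay below. These 4 of 10 genes had separated slides, as did 43% of all features. Of all features, 7.79% rose by at least as much as Fos.

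Junb differed by -0.84 ± 0.09 (adjusted p = 0.000675), with -0.91 in WT and -0.76 in EP2KO, and its slides did not overlap. With normexp background correction its difference was -0.36 (adjusted p = 0.343), so this call depended on how the background was treated. Fosb differed by 0.35 ± 0.21, Fosl2 by 0.10 ± 0.10, Jund by -0.09 ± 0.11, Zfp36 by 0.11 ± 0.18 and Egr1 by -0.57 ± 0.37, none of them called. The interval of Jund was -0.36 to 0.18 and that of the brighter Fosl2 probe -0.14 to 0.33. With the scanner's background correction these excluded a rise or fall as large as that of Jun, Atf3, Fos or Junb. The dimmer Fosl2 probe rose by 0.83 ± 0.26 when each probe was its own feature (limma adjusted p = 0.0398), which the brighter probe did not. Its interval ran from 0.21 to 1.45, so for this probe a rise as large as that of Fos was not excluded. Fosl1 differed by -0.76 ± 0.81 and stood at -1.65 and was called (adjusted p = 0.0133) once WT 2, its array at background, was left out.

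**Figure D4:**
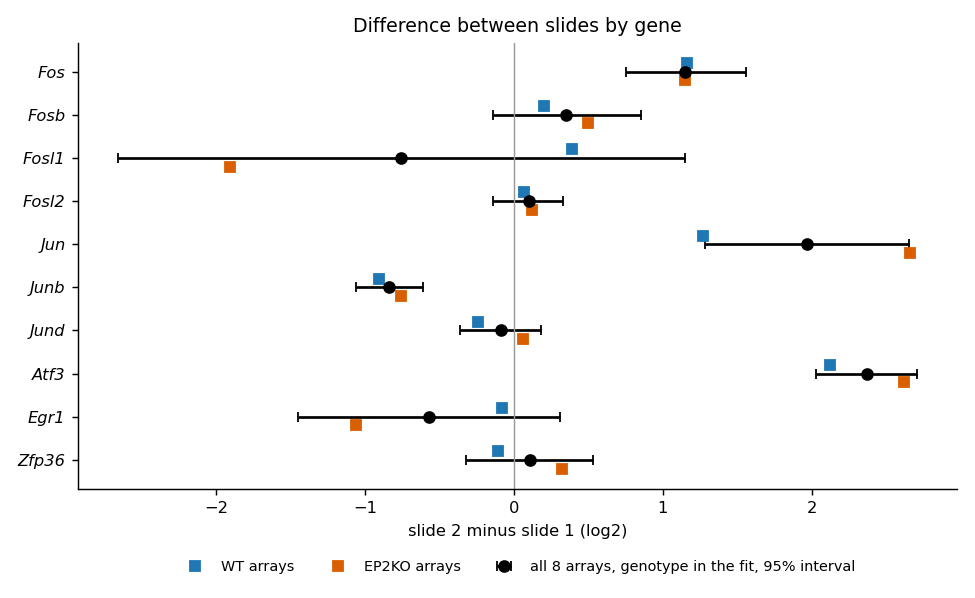
Difference between slide 2 and slide 1 (horizontal axis, log2 units) for the 10 genes. Black points with bars are the fit over all 8 arrays with 95% intervals, and squares are the differences within WT (blue) and EP2KO (orange). Atf3 (2.37), Jun (1.97) and Fos (1.15) lie above 0 and Junb (-0.84) below it in both genotypes.

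The related lists moved in both directions between the slides. Of 39 other immediate early genes, 11 were higher and 10 lower on slide 2, and the median was -0.03 beside 0.06 over all features. The examples that follow have the largest differences of their list and were chosen after their values had been seen. Gadd45b, a stress-response gene, was 5.39-fold and Egr2, a relative of Egr1, 4.54-fold higher. Socs3, an inhibitor of cytokine signalling, was 3.45-fold and Ier3 3.35-fold lower. Of 26 other leucine zipper genes, 8 were higher, led by Creb5 (2.39-fold), and 4 lower, led by Cebpb (2.27-fold), an activator of inflammatory genes. Upstream genes were 7 higher and 6 lower of 32, with Mrtfb, a cofactor of serum response factor, 4.97-fold higher and the p38 kinase Mapk11 4.62-fold lower.

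Genes with known AP-1 control were 8 higher and 3 lower of 22. Spp1, which encodes osteopontin, was 19.8-fold higher, and the interleukin Il6 was 34.6-fold lower. Of 14 mRNAs known to be bound by Zfp36, 4 were higher, among them the chemokine Ccl3 (4.23-fold), and 6 lower, among them Il6 and Il1b (6.98-fold). Relatives of Zfp36 and decay partners were 3 higher and 2 lower of 18, with Zfp36l1 1.73-fold lower. Heat shock genes were 2 higher (Bag3 1.76-fold and Hsph1 1.74-fold) and 1 lower (Dnajb1 1.60-fold) of 14, and their summed relative signal was 197 to 234 on slide 1 and 197 to 225 on slide 2.

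Markers of other cells moved between the slides too. B cell markers were lower on slide 2 for 9 of 11 genes, with a summed relative signal of 65.9 to 110 on slide 1 and 6.52 to 18.2 on slide 2. T and NK cell markers were lower for 12 of 16 and higher for 1, mast cell and eosinophil markers lower for 10 of 11, and neutrophil markers higher for 2 and lower for 6 of 12. The sums were 16.1 to 38.2 and 2.12 to 14.4 for mast cell and eosinophil markers and 69.3 to 130 and 55.4 to 60.5 for neutrophil markers. For endothelial markers the sum was 2.62 to 3.56 on slide 1 and 9.22 to 16.9 on slide 2 (3 higher and 1 lower of 7), and for macrophage markers 284 to 374 and 242 to 349 (2 higher and 3 lower of 13). Of 10 erythroid and platelet markers tested, 4 were lower. Epx, Tek and Tie1 were well above background on none of the arrays. The part of these cells in the slide differences of Atf3, Jun, Fos and Junb was not tested.

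**Figure D5:**
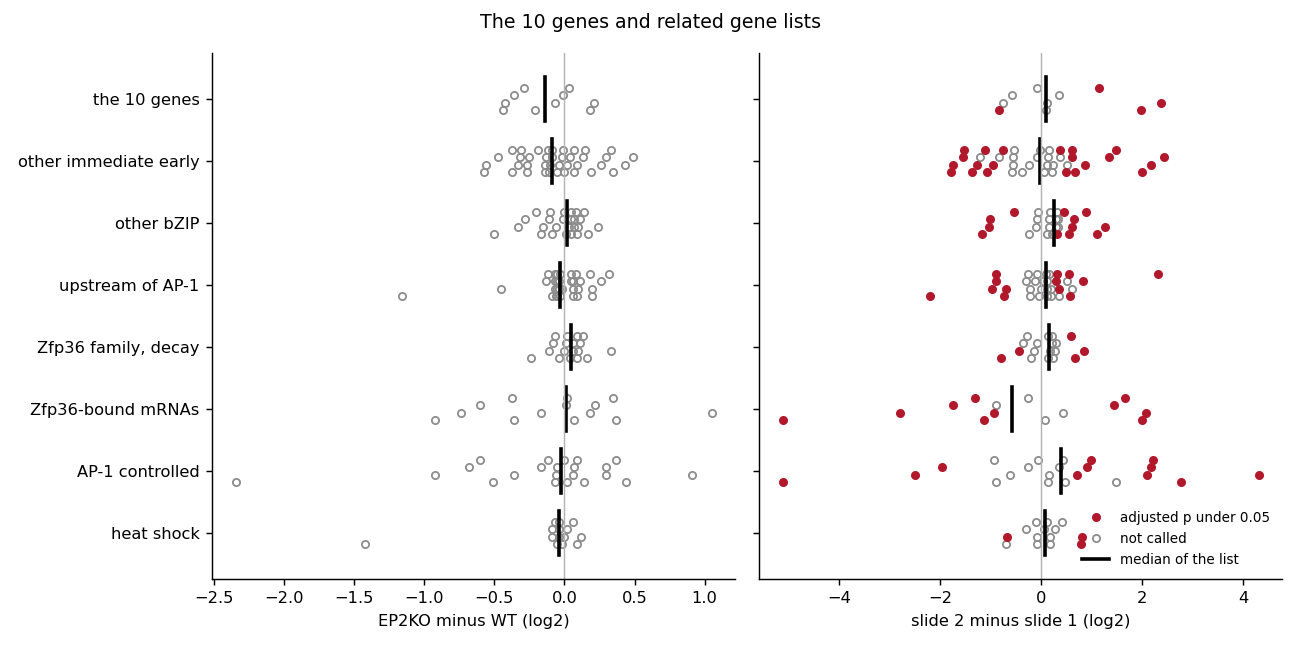
Log2 differences of the 10 genes and of the 7 related lists, EP2KO minus WT on the left and slide 2 minus slide 1 on the right (horizontal axes, log2 units). Each point is a gene, filled where the adjusted p was under 0.05, and black bars are list medians. No point is filled on the left, and filled points lie on both sides of 0 on the right.

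Profiles over the 8 arrays were compared by the root mean square difference of log2 values, each centred on its own mean. Fosl2 and Jund were the closest pair of the 10 genes (0.147 log2 units), and Jun and Atf3 differed by 0.354. The measure was not scaled by the range of a gene, so genes that change little come out close. The brighter Fosl2 probe and Jund had the smallest log2 ranges of the 10 genes (0.48 and 0.66). Profiles of 14475 other named genes, not of all 20886 on the array, were ranked for the 6 genes with a log2 range of at least 1. These were Fos, Fosl1, Jun, Atf3, Egr1 and Zfp36. Closest to Atf3 were Nceh1 (0.112), Mrtfb (0.113) and Pdxk (0.125). Closest to Fos were Rtbdn (0.186), Gsn (0.189) and Gkn3 (0.198), and closest to Jun were Rasa4 (0.210), Tpcn2 (0.215) and Scd4 (0.216). Zfp36 was nearest to Ttc5 (0.155), Egr1 to Adcy6 (0.271) and Fosl1 to Anxa8 (0.322). These values are descriptions over arrays that fall into 2 slides.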

How the data were processed

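Labelled cRNA had been made from 0.5 µg of RNA with Cy3, per the labels' protocols. The deposited files give spot intensity on a linear scale, made with Feature Extraction 10.7.1.1 per the file headers (Agilent Feature Extraction 9.1 per the submitters' processing notes). This signal has its background corrected and no scaling between arrays. The series table, also deposited, repeats these intensity values (largest log2 difference 0). The array design names mm9.

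Log2 of the processed signal minus each array's 75th percentile was used, without 1377 control spots of 44397 and without spots flagged as outliers, and repeated spots were averaged on the log2 scale. No spot was saturated (0). RefSeq transcripts of GRCm38.p6 named 27508 of 39429 probes. Kept probes were well above background in all 4 arrays of 1 genotype or both, the brightest of a gene stood for it, and this left 20738 features. EP2KO was compared with WT by limma 3.58.1 in R 4.3.3 (lmFit, eBayes, two-sided, Benjamini-Hochberg over all features, adjusted p 0.05). The slide was compared with the genotype in the fit, and the interaction in a fit of its own. Values for the dimmer Fosl2 probe come from a fit with every kept probe as a feature. Single slides were fitted alone. Alternatives changed the background (normexp, offset 50, on the median spot signal), the scaling, the filter, the probe rule, the block, the variance model and the arrays used. The fits were run on simulated data with known differences. The check that large differences were recovered did not cover the genotype fit without a block.

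To check the pairing, deviations from the genotype mean were correlated across genes between WT and EP2KO arrays that share a replicate number (r 0.74, 0.12, 0.55 and 0.43). Arrays that share a replicate number also share a slide, so these correlations cannot tell a pairing by replicate from the shared slide. With the replicate block, 0 features were called in place of 2, and 0 of the 10 genes in either fit.

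The genes, lists, tests and alternatives were chosen with earlier results of these data known. All 287 names on the 15 other lists matched a symbol. From each list, genes past the threshold in the slide-blocked fit were to be named (at most 4), or else the 2 with the smallest unadjusted p without a block. None passed. Marker lists are given by counts and sums. The array number limits the precision.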

Additional observations from a re-analysis of the deposited data

How the results depend on the processing

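Between genotypes 0 of the 10 genes were called under all 20 alternatives, although Fosl1 was not tested where all 8 arrays had to be above background. Between slides 4 of 10 became 3 to 5. Over all features, 2 were called between genotypes without a block, 4 with the slide as a fixed or as a random block, 0 with the replicate block, 0 on slide 1 alone and 340 on slide 2 alone, and 0 to 4 with 1 array left out. Between slides, normexp called 3533 in place of 8967. It also moved the median of all features between slides from 0.06 to 0.17, and that between genotypes from -0.03 to -0.10. Fos, Fosl2, Jund and Zfp36 stayed below 0 in EP2KO under all 20 alternatives, the lowest adjusted p being 0.385. Genotype differences that changed sign were Fosl1 with normexp (-0.63) and on slide 2 alone (-0.97), Fosb (0.03) and Junb (0.06) with quantile normalization, Jun (-0.66), Atf3 (-0.04) and Egr1 (0.05) on slide 1 alone, and Fosb (0.08) and Junb (0.07) on slide 2 alone. Leaving out 1 array without a block leaves the slides unequal. It gave ranges of -0.25 to 0.07 for Fosb, -0.43 to 0.67 for Fosl1, -0.42 to 0.50 for Jun, -0.16 to 0.15 for Junb, -0.25 to 0.69 for Atf3 and -0.66 to 0.00 for Egr1. With the slide as a block, an alternative added after the data had been seen, these were -0.23 to 0.05 for Fosb, -0.71 to 0.66 for Fosl1, -0.21 to 0.20 for Jun and -0.06 to 0.03 for Junb. Between slides, Fosl1 with normexp was at 0.07 and Zfp36 without EP2KO 1 at -0.01, and with 1 array left out they ran -1.65 to -0.33 for Fosl1 and -0.01 to 0.25 for Zfp36. For sign changes other than those from fewer arrays the cause was not tested. The dim probes of Fosl1, Fosb and the second Fosl2 probe limit what can be read from them.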

Other observations

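The balance of Jun and Junb within an array differed between the slides. The log2 signal of Jun minus that of Junb was 4.40, 4.34, 3.67 and 3.90 on WT 1, WT 2, EP2KO 1 and EP2KO 2, and 6.29, 6.81, 7.14 and 7.28 on WT 3, WT 4, EP2KO 3 and EP2KO 4. Only its change between arrays can be read, since the level depends on the probes. Within slide 1 both EP2KO values lay below both WT values, and within slide 2 both lay above. This balance was singled out after the values of Jun and Junb had been seen and was not tested.

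None of the 22 groups of 4 arrays (11 probes in 2 genotypes) held an array whose gap to its nearest neighbour, divided by the range of the group, passed Dixon's critical value. Each group mixed arrays of both slides, so where the slides stood apart, as for Atf3, Jun, Fos and Junb, the gap between slides filled most of the range and this check says nothing of single arrays.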
